A study of Mus musculus with 6 samples.

Results

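Here the respiratory chain genes of the mouse preoptic region were followed across cell classes: the mitochondrially encoded genes against the nuclear ones. Genes were chosen by symbol, as those naming a subunit of complexes I to V (the mt-Nd, mt-Cytb, mt-Co and mt-Atp genes, the Nduf genes of the A, B, C, S and V groups, Sdha to Sdhd, and the Uqcr, Cox4 to Cox8 and Atp5 genes). Of 27998 genes counted, 97 symbols matched, and 95 of them held at least 100 UMIs (unique molecular identifiers, 1 for each RNA molecule counted). Cox8b and Cox8c fell below that limit. The 95 genes are 13 mitochondrial ones (7 of complex I, 1 of complex III, 3 of complex IV and 2 of complex V, the ATP synthase) and 82 nuclear ones (37 of complex I, 4 of complex II, 8 of complex III, 16 of complex IV and 17 of complex V). The symbols alone decided, so Atp5sl, named for its likeness to a subunit, is among them. For the same reason Ndufa4 and its paralog Ndufa4l2 are counted here with complex I. Over all barcodes the mitochondrial genes held 9554358 and the nuclear genes 7351744 of 217266089 UMIs.

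The study profiled single cells of this hypothalamic region by the 10x Chromium droplet method in 3 female and 3 male libraries, each from a pool of 3 mice between 60 and 70 days old. All mice were kept singly for 3 days, and the labels give no strain, genotype or drug. Tissue was dissociated with protease and live cells were sorted, and every library shares that handling. The text lists values of female replicates 1, 2 and 3 and male replicates 1, 2 and 3 in that order, and female replicate 3 is missing where it held under 20 cells of a class. That library is the smallest, with 406 cells kept and a median of 2671 UMIs, against 1939 to 9365 cells and medians of 3614 to 6538 in the others. Of 31299 barcodes, 475 were left out (434 of them for over 20% mitochondrial UMIs) and 1002 as doublets, which left 29822 cells. Of 30815 barcode sequences, 479 occurred in more than 1 library.

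The respiratory chain passes electrons through complexes I to IV of the inner mitochondrial membrane and pumps protons outward, and complex V lets them return to make ATP. The chain is built from both genomes. The mitochondrial DNA, read as long transcripts that are cut into single RNAs, encodes core subunits of complexes I, III and IV and part of complex V, while the nucleus encodes all of complex II and the other subunits. Neurons are known for a high use of mitochondrial ATP, and several nuclear subunits have isoforms restricted to some tissues.

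Classes were rebuilt from markers without using the respiratory chain genes. Each name below stands for cells like that type: 15065 inhibitory and 3244 excitatory neurons, 6635 mature oligodendrocytes, 409 newly formed oligodendrocytes, 1553 oligodendrocyte precursors, 835 astrocytes, 795 microglia, 486 endothelial cells and 448 mural cells (the pericytes and smooth muscle of vessels). Median depth ran from 3034 UMIs per astrocyte to 8196 per excitatory neuron. The comparisons were limited to these 9 classes. Left out of them were 117 dividing cells, 76 macrophages, 64 fibroblasts and an unnamed cluster of 95 cells, which had 20 cells in only 1 to 3 libraries each.

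Among the 9 larger classes mural cells and astrocytes held the largest mitochondrial share, neurons and mural cells the largest nuclear share, and microglia the smallest of both. The 13 mitochondrial genes made up 5.0% ± 0.102 (SD, n = 5) of all UMIs in mural cells and 4.81% ± 0.574 (n = 6) in astrocytes. They made up 4.31% ± 0.577 in excitatory neurons, 4.29% ± 0.49 in inhibitory neurons and 4.28% ± 0.0925 in mature oligodendrocytes. Neighbours in this upper range did not separate: astrocytes lay above mural cells in 2 of 5 libraries, and inhibitory neurons above mature oligodendrocytes in 3 of 6. Below them came oligodendrocyte precursors at 3.83% ± 0.344, newly formed oligodendrocytes at 3.21% ± 0.199, endothelial cells at 3.18% ± 0.385 and microglia at 2.63% ± 0.171. Precursors exceeded newly formed oligodendrocytes in 5 of 5 libraries, and endothelial cells exceeded microglia in 5 of 5. Of the small groups, macrophages had 5.53% (1 library) and the unnamed cluster 5.41% and 5.47% (2 libraries), above every mean given here, with log2 ratios of mitochondrial to nuclear UMIs of 0.92, and of 1.06 and 1.28.

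The 82 nuclear genes followed another order. Their share of UMIs was 3.81% ± 0.217 in excitatory neurons, 3.74% ± 0.276 in mural cells and 3.68% ± 0.166 in inhibitory neurons, and those 3 classes overlapped. Oligodendrocyte precursors at 3.17% ± 0.185, astrocytes at 3.03% ± 0.251 and newly formed oligodendrocytes at 2.96% ± 0.21 came next. Inhibitory neurons exceeded precursors in 6 of 6 libraries. Endothelial cells at 2.35% ± 0.315 and mature oligodendrocytes at 2.29% ± 0.244 overlapped, with the endothelial value higher in 4 of 6 libraries, and both exceeded microglia, at 1.68% ± 0.281. Complex I subunits held 1.54% of UMIs in excitatory neurons and 0.564% in microglia, and the 4 subunits of complex II, the enzyme shared with the citrate cycle, held 0.102% and 0.0403%.

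Mature oligodendrocytes paired a neuron-like mitochondrial share with a low nuclear one. The log2 ratio of mitochondrial to nuclear UMIs was 0.86, 0.64 and 1.13 in the female and 0.95, 0.89 and 1.00 in the male libraries for them. In inhibitory neurons it was 0.01, 0.10 and 0.00 in the female and 0.36, 0.41 and 0.40 in the male libraries, below every value of mature oligodendrocytes. Means were 0.91 ± 0.17 (SD, n = 6) in mature oligodendrocytes, 0.66 ± 0.23 (n = 5) in microglia, 0.66 ± 0.18 in astrocytes, 0.44 ± 0.23 in endothelial cells, 0.42 ± 0.11 in mural cells, 0.27 ± 0.17 in precursors, 0.22 ± 0.20 in inhibitory neurons, 0.17 ± 0.26 in excitatory neurons and 0.12 ± 0.11 in newly formed oligodendrocytes. Mature oligodendrocytes exceeded microglia in 5 of 5 libraries, whereas every later neighbouring pair in that order changed places in at least 1 library. These are sums over chosen genes and carry no test.

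**Figure D1:**
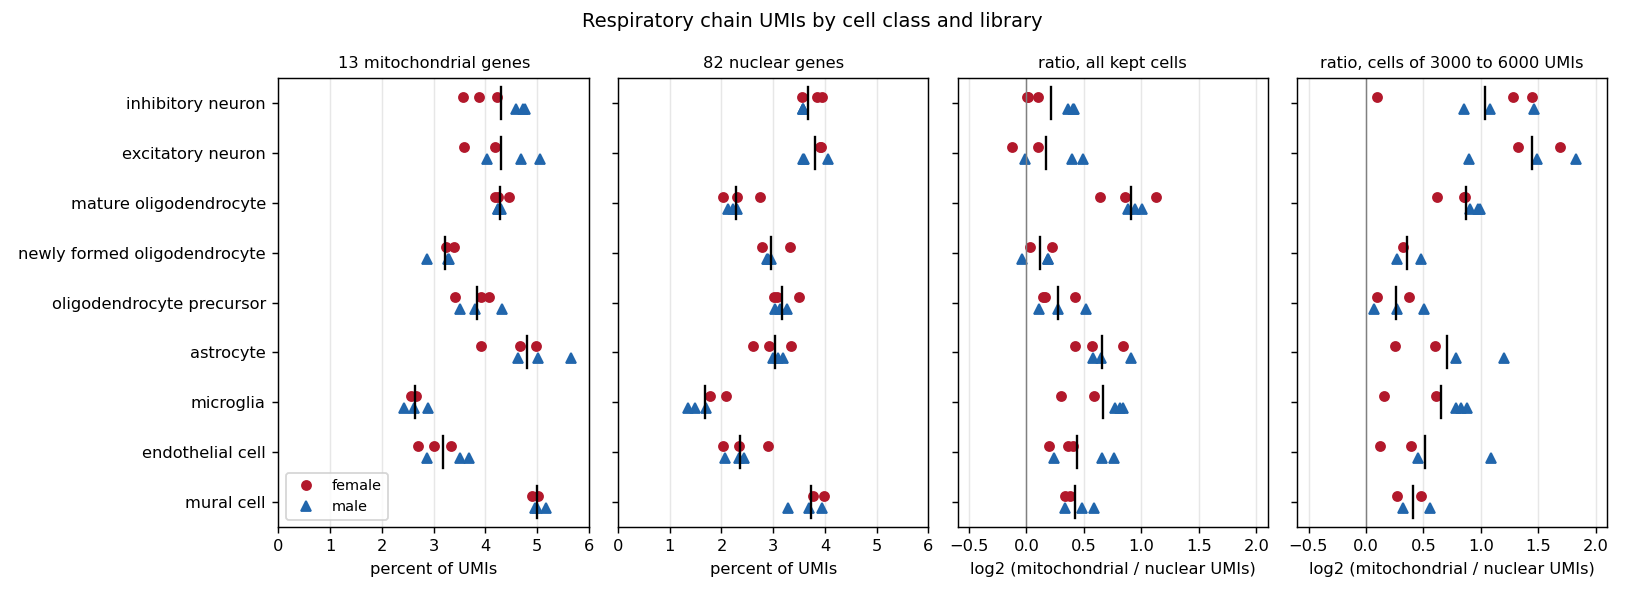
Each point is 1 library with at least 20 cells of the class (circles female, triangles male) and each black bar the mean. The panels give the share of UMIs from the 13 mitochondrial and the 82 nuclear genes in percent, and the log2 ratio of the sums in all kept cells and in cells of 3000 to 6000 UMIs. Of the 9 classes plotted, mature oligodendrocytes have the highest mean ratio in all cells (0.91), and neurons in the cells of matched depth (1.44 and 1.04).

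The order of that ratio depended on cell depth. Inhibitory neurons were divided in each library into 4 quartiles by UMIs per cell. From the shallowest to the deepest quartile the mitochondrial genes went from 233 to 258, 286 and 357 UMIs per cell, and the nuclear genes from 60.4 to 136, 267 and 513. The nuclear sum grew far more than the mitochondrial one, and the mean log2 ratio went from 1.97 to -0.58, lower in the deepest quartile in 6 of 6 libraries. In excitatory neurons the mitochondrial genes went from 306 to 423 UMIs per cell, the nuclear ones from 80.7 to 632, and the ratio from 1.96 to -0.58, lower in 5 of 5 libraries. Mature oligodendrocytes shared the direction at a smaller size, from 1.48 to 0.71 (6 of 6 libraries), and so did newly formed oligodendrocytes, from 0.56 to 0.04 (3 of 3 libraries). Precursors (0.34 and 0.30), microglia (0.57 and 0.60), astrocytes (0.65 and 0.62) and mural cells (0.28 and 0.25) had similar ratios at both ends, and the difference between the ends went both ways over libraries. Endothelial cells had a higher mean in the deepest quartile (0.16 and 0.31), although the ratio was lower there in 2 of 4 libraries. Depth is itself a sum that includes these genes, so the quartiles are a description.

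**Figure D2:**
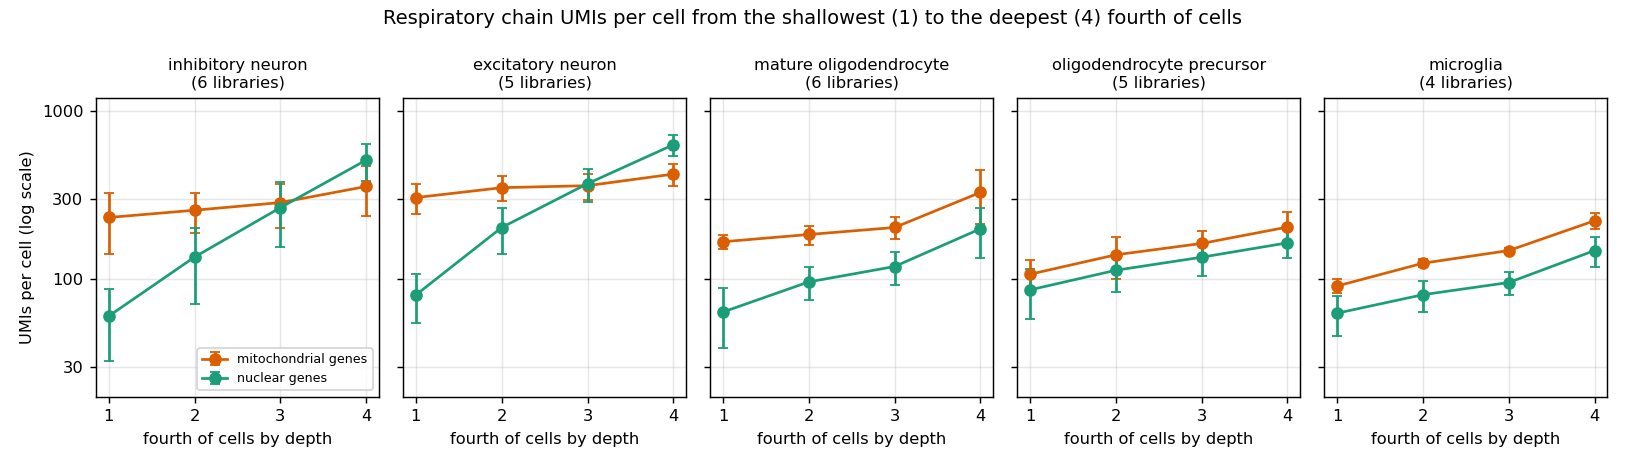
Mean UMIs per cell (log scale) from the mitochondrial and the nuclear genes, in each library's cells of a class divided into 4 groups of equal size by UMIs per cell (1 shallowest, 4 deepest). Points are means over libraries and bars the SD. In neurons the nuclear line crosses the mitochondrial one, from 60.4 to 513 UMIs in inhibitory neurons, and in precursors and microglia the lines run side by side.

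Gene by gene the contrast between shallow and deep inhibitory neurons was broad. Of 79 nuclear genes with enough UMIs, 73 had a higher CPM (UMIs per 1000000 UMIs of the summed cells) in the deepest than in the shallowest quartile in all 6 libraries, with a median log2 difference of 0.96. Among all 12402 genes the share higher in every library was 19.6% and the median -0.17. Ndufb8, an accessory subunit of complex I, went from 259 to 671 CPM. Sdhc, a membrane anchor of complex II, was the exception that was lower in every library, at 149 and 121 CPM. Of the 13 mitochondrial genes, 12 were lower in every library, against 23.6% of all genes, with a median of -1.58. The complex I core gene mt-Nd1 went from 14079 to 4296 CPM, and mt-Co1, the catalytic subunit of complex IV, from 4409.5 to 2511. The gene outside that count was mt-Nd6 (0.12), the only one of the 13 on the minus strand of the mitochondrial DNA (chrM:13552-14070, - strand of mm10).

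Excitatory neurons gave the same picture, with 72 of 78 nuclear genes higher in every library (21.3% of all genes) and 12 of 13 mitochondrial genes lower (29.4%). In mature oligodendrocytes 12 of 13 mitochondrial genes were lower in the deepest quartile in every library (3.71% of all genes), while only 8 of 77 nuclear genes were higher (8.54%) and 5 lower. In precursors 6 of 74 nuclear and 2 of 12 mitochondrial genes were higher (7.24%), and 2 nuclear and 0 mitochondrial ones lower (5.29%). Some other lists in inhibitory neurons moved with the nuclear genes (all genes 19.6% higher and 23.6% lower). Higher in every library were 62 of 77 genes of the mitochondrial ribosome, 9 of 9 carriers and pores and 78 of 84 genes of the cytosolic ribosome. Assembly factors had 20 higher and 0 lower of 45, and the citrate cycle 7 higher and 2 lower of 13. Factors of mitochondrial DNA and RNA did not follow, with 4 higher and 6 lower of 28 and a median of -0.15. The nuclear-retained RNA Malat1 went the opposite way to the nuclear chain genes, from 66415 to 29948 CPM. Its part in the result was not tested.

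A single cluster among the 13 of neurons stood apart. These 2880 inhibitory cells, led by the netrin receptor gene Unc5d, held 8.87% ± 0.505 mitochondrial and 2.56% ± 0.236 nuclear member UMIs (SD, n = 5). Its median depth was 4050 UMIs, with 381 mitochondrial and 112 nuclear member UMIs per cell. Its log2 ratio of 1.80 ± 0.20 was the highest of the neuron clusters in 5 of 5 libraries. The other neuron clusters lay between -0.26 (1619 inhibitory cells led by Gal, the galanin gene) and 0.36 (164 excitatory cells led by Sln). That excitatory cluster was high in both sums, with 6.30% ± 0.131 mitochondrial and 4.90% ± 0.226 nuclear UMIs (n = 3). Without the Unc5d cluster the inhibitory neurons had 3.76% mitochondrial and 3.81% nuclear UMIs and a ratio of -0.03 ± 0.15. That cluster made up 33.2% of the shallowest and 1.81% of the deepest quartile of inhibitory neurons. Its profile was not particular to it. The shallowest quartile of excitatory neurons, which held none of its cells, had 9.05% ± 1.35 mitochondrial and 2.31% ± 0.246 nuclear UMIs (n = 5) and a ratio of 1.96. In cells of 3000 to 6000 UMIs, a window chosen after seeing the data, mean ratios were 1.44 ± 0.36 in excitatory and 1.04 ± 0.51 in inhibitory neurons, 0.87 ± 0.13 in mature oligodendrocytes, 0.71 ± 0.40 in astrocytes, 0.65 ± 0.30 in microglia, 0.51 ± 0.41 in endothelial cells, 0.41 ± 0.13 in mural cells, 0.36 ± 0.11 in newly formed oligodendrocytes and 0.26 ± 0.19 in precursors. By these means neurons then stood at the top of the order, where in all cells they stood near its foot. Their spread over libraries was wide. In male replicate 3 excitatory (0.90) and inhibitory neurons (0.86) lay below mature oligodendrocytes (0.91). In female replicate 3 inhibitory neurons had 0.10 against 0.86, and in each other library the neurons lay above mature oligodendrocytes. The window lies below the median depth of both neuron classes (6743 and 8196 UMIs), and cells of the Unc5d cluster were kept in it.

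Within the oligodendrocyte lineage the mitochondrial genes were lower in both earlier classes than in mature cells. The tests compared summed UMIs of both classes within the same libraries (edgeR quasi-likelihood test with the library as a block, Benjamini-Hochberg adjustment over all genes tested, called at an adjusted p under 0.05). In precursors against mature oligodendrocytes 13 of 13 mitochondrial genes were lower and 0 higher, beside 35.9% and 35.7% of all genes, with a median log2 change of -0.82 against -0.01 for all genes. In newly formed against mature cells 12 of 13 were lower and 0 higher (all genes 27.1% and 27.6%), with a median of -0.75.

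The complex I core gene mt-Nd3 had 314, 428 and 279.8 CPM in the female and 395, 446 and 282 CPM in the male libraries in mature oligodendrocytes. Precursors had 249, 301 and 141 CPM in the female and 311, 258 and 159 CPM in the male libraries. The ranges overlapped, but precursors were lower in every library, and the TMM-scaled log2 change was -1.20 ± 0.09 (SE, adjusted p = 7.23e-10, same sign in 6 of 6 libraries). For mt-Co2, which binds cytochrome c in complex IV, it was -1.11 ± 0.08 (SE, adjusted p = 5.08e-10, same sign in 6 of 6 libraries) in precursors and -1.10 ± 0.08 (SE, adjusted p = 2.23e-11, same sign in 5 of 5 libraries) in newly formed cells. The small ATP synthase subunit mt-Atp8 changed by -1.09 (adjusted p = 3.89e-09) and -1.12 (adjusted p = 3.44e-09).

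Nuclear genes moved in both directions along the lineage. Precursors had 14 nuclear genes higher and 43 lower of 77 (median -0.21), and newly formed cells 15 higher and 27 lower of 77 (median -0.04), against the same background shares. Ndufa4, a subunit now counted with complex IV, had 1221, 1268 and 1184 CPM in the female and 1334, 1193 and 1279 CPM in the male libraries in precursors and 474, 557 and 355 CPM in the female and 485, 432 and 409 CPM in the male libraries in mature cells, without overlap, and a TMM-scaled log2 change of 0.79 ± 0.06 (SE, adjusted p = 3.22e-09, same sign in 6 of 6 libraries). Cox7b, an accessory subunit of complex IV, and Uqcrb, a subunit of complex III, were higher in precursors by 0.38 (adjusted p = 0.000134) and 0.41 (adjusted p = 4.76e-05). Cox4i1, the common isoform of the largest nuclear subunit of complex IV, was lower, with a log2 change of -0.92 ± 0.06 (SE, adjusted p = 3.47e-10, same sign in 6 of 6 libraries) on the TMM scale. Ndufs7 and Ndufv1, which carry iron-sulfur centres and flavin in complex I, were lower, with a log2 change of -0.86 (adjusted p = 1.06e-09) and -0.71 (adjusted p = 4.04e-07). In newly formed cells Cox5a was higher by 0.45 (adjusted p = 4.51e-05) and Sdha, the flavoprotein of complex II, lower, with a log2 change of -0.77 (adjusted p = 1.44e-07).

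The direction of the nuclear changes depended on the scaling. Scaling by library totals alone shifted the median of all genes to 0.64 in precursors and 0.41 in newly formed cells, and the nuclear genes then came out as 64 higher and 2 lower of 77 and 50 higher and 4 lower of 77. The mitochondrial genes were 1 higher and 7 lower of 13 and 0 higher and 9 lower of 13 on that scale. Relative to the median of all genes, the mitochondrial median in precursors was -0.81, -0.83 and -0.79 by TMM, DESeq2 and totals, and the nuclear one -0.20, -0.21 and -0.18. Nuclear counts by DESeq2 were 15 higher and 37 lower of 77 in precursors and 11 higher and 27 lower of 77 in newly formed cells. In cells of 3000 to 6000 UMIs, 13 and 12 of 13 mitochondrial genes stayed lower. Called under all 3 scalings and in that window were 7 mitochondrial genes with Cox4i1 and Ndufs7 as lower in precursors, and Ndufa4, Cox7b, Uqcrb, Cox6b2, Cox6b1, Atp5g3, Ndufa1, Ndufa12, Ndufs3 and Ndufv2 as higher. The newly formed class carried the 9 markers of mature oligodendrocytes at 27899 CPM (22400.5 to 33634 over libraries), against 77764 CPM (61680.4 to 88022 over libraries) in mature cells, and the part of this in the result was not tested.

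**Figure D3:**
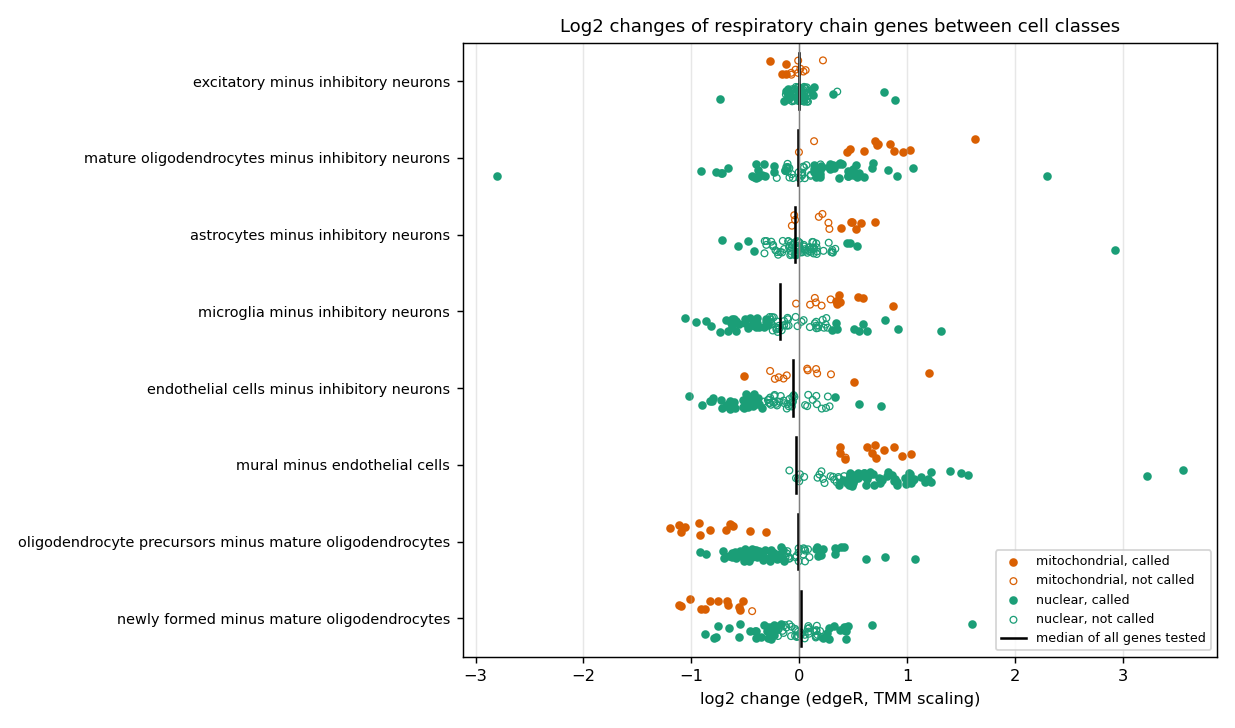
Log2 changes (edgeR, TMM scaling) of single respiratory chain genes in 8 comparisons between classes. Each point is 1 gene (upper row of each comparison mitochondrial, lower row nuclear), filled where the adjusted p is under 0.05, and the black bar is the median of all genes tested. In mural against endothelial cells the points lie almost all above 0, with medians of 0.69 and 0.59.

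Mural cells differed from endothelial cells in most genes of the chain. Of 12 mitochondrial genes tested 11 were higher in mural cells, and of 76 nuclear genes 58, with 0 lower, beside 16.8% of all genes higher and 18.8% lower (35.6% either way). Median log2 changes were 0.69 and 0.59 against -0.03 for all genes. DESeq2 called 48 higher and 0 lower of 76 nuclear genes, totals without TMM 47 higher and 0 lower of 76, and the window of 3000 to 6000 UMIs 64 higher and 0 lower of 76. Under all of them 55 of the genes (8 mitochondrial and 47 nuclear) were called higher. Each complex took part, with 23 of 37 nuclear genes of complex I higher, 4 of 4 of complex II, 8 of 8 of complex III, 10 of 12 of complex IV and 13 of 15 of complex V. The ratio of the mitochondrial to the nuclear sum did not separate these classes: it was 0.38 and 0.33 in the female and 0.48, 0.34 and 0.59 in the male libraries for mural cells and 0.36, 0.20 and 0.41 in the female and 0.65, 0.24 and 0.76 in the male libraries for endothelial cells.

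Core subunits were among the changed genes. Atp5b, the catalytic beta subunit of ATP synthase, had 1240.1 and 1284 CPM in the female and 1328, 1474 and 1532 CPM in the male libraries in mural cells. Endothelial cells had 676, 795 and 659 CPM in the female and 747, 695 and 710.2 CPM in the male libraries, below every mural value, and the log2 change was 0.98 ± 0.13 (SE, adjusted p = 1.8e-05, same sign in 5 of 5 libraries). Its partner Atp5a1 changed by 1.02 (adjusted p = 3.02e-05). Among the other core genes the changes were 1.03 (adjusted p = 0.00075) for the complex I iron-sulfur subunit Ndufs1, 0.63 (adjusted p = 0.00222) and 0.50 (adjusted p = 0.00822) for the catalytic pair of complex II, 0.54 (adjusted p = 0.00821) for the Rieske protein of complex III and 0.66 (adjusted p = 0.00109) for Cox5b of complex IV. Of 15 core genes listed 14 were higher, and Cox5a, at -0.03 (adjusted p = 0.911), was the one not called. mt-Co1 had 5003 and 5282 CPM in the female and 4699.7, 5236 and 5343 CPM in the male libraries in mural cells against 2929 to 3423 CPM in endothelial ones, with a change of 0.78 ± 0.13 (SE, adjusted p = 0.000168, same sign in 5 of 5 libraries). Cox8a, the common form of a small complex IV subunit, had 1703 and 1812 CPM in the female and 1682, 1859 and 1806 CPM in the male libraries of mural cells and 439 to 813 CPM in endothelial cells, with a change of 1.57 ± 0.14 (SE, adjusted p = 2.33e-07, same sign in 5 of 5 libraries). Ndufa13 of complex I and Sdhc of complex II also stood out, at log2 changes of 1.5 (adjusted p = 3.61e-07) and 1.4 (adjusted p = 4.66e-06).

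A pair of isoform genes was high in mural cells. Cox4i2 (chr2:152754173-152765037, + strand, mm10) encodes the alternative form of Cox4i1, known from lung and from oxygen-sensing cells, and Ndufa4l2 (chr10:127514967-127517154, + strand) a paralog of Ndufa4 known as a hypoxia-inducible gene. Cox4i2 had 214 and 117 CPM in the female and 163, 139.9 and 286 CPM in the male libraries in mural cells. Endothelial cells had 46.7, 9.37 and 24.4 CPM in the female and 24.9, 8.45 and 0 CPM in the male libraries, and the log2 change was 3.22 ± 0.31 (SE, adjusted p = 7.51e-07, same sign in 5 of 5 libraries). Ndufa4l2 had 662 and 551 CPM in the female and 663, 567 and 1270.5 CPM in the male libraries in mural and 110.0, 36.3 and 0 CPM in the female and 89.7, 46.5 and 0 CPM in the male libraries in endothelial cells, with a change of 3.56 ± 0.32 (SE, adjusted p = 3.15e-07, same sign in 5 of 5 libraries). Mural and endothelial values overlapped for neither gene. For the common partners the values were 0.47 ± 0.14 (SE, adjusted p = 0.0151, same sign in 4 of 5 libraries) for Cox4i1, which was called higher, and -0.01 (adjusted p = 0.97) for Ndufa4, which was not. A Cox4i2 UMI was found in 170 of 448 mural cells (37.9%), 4.94% of endothelial cells and 0.0863% of inhibitory neurons, although the neurons were deeper (medians of 3378, 3715.5 and 6743 UMIs). An Ndufa4l2 UMI was found in 303 mural cells (67.6%), 11.1% of endothelial cells and 0.87% of inhibitory neurons. Fibroblasts, a small class of 64 cells, had one in 26 (40.6%).

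Both isoforms were highest in the pericyte-like part of the mural cells. Clustering the 448 cells on their own gave 5 subsets. The pericyte-like subset (139 cells, with 3 of 4 pericyte markers raised, the markers being Kcnj8, Abcc9, Higd1b and Atp13a5) had 1391 CPM of Ndufa4l2 and 358 of Cox4i2. The other subsets, which stayed unnamed, had 291 to 578 and 66.9 to 116, and these pooled values carry no test. Of these, a subset of 147 cells had 2 of 4 smooth muscle markers raised. The lowest values of both genes came from 28 cells led by the neuron markers Snhg11 and Meg3, with a median of 8404 UMIs. Male replicate 3, the library highest for both genes, had 19 pericyte-like cells among its 35 mural cells (54.3%), against 13% to 42.5% in the other libraries used. Endothelial cells carried some RNA of other types, with a summed level of 10 mural markers of 1010.5 CPM (109 to 2369.6 over libraries) against 32563 CPM (29905 to 37843 over libraries) in mural cells, 4 haemoglobin genes at 17662 CPM (0 to 46563 over libraries) and 9 oligodendrocyte markers at 4264 CPM (757 to 12993 over libraries). In mural cells 8 endothelial markers summed to 36.1 CPM (24.9 to 49.8 over libraries), 4 haemoglobin genes to 18.4 CPM (4.66 to 42.1 over libraries) and 14 neuron markers to 3496 CPM (1920.3 to 5711 over libraries). Their part in the difference was not tested.

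**Figure D4:**
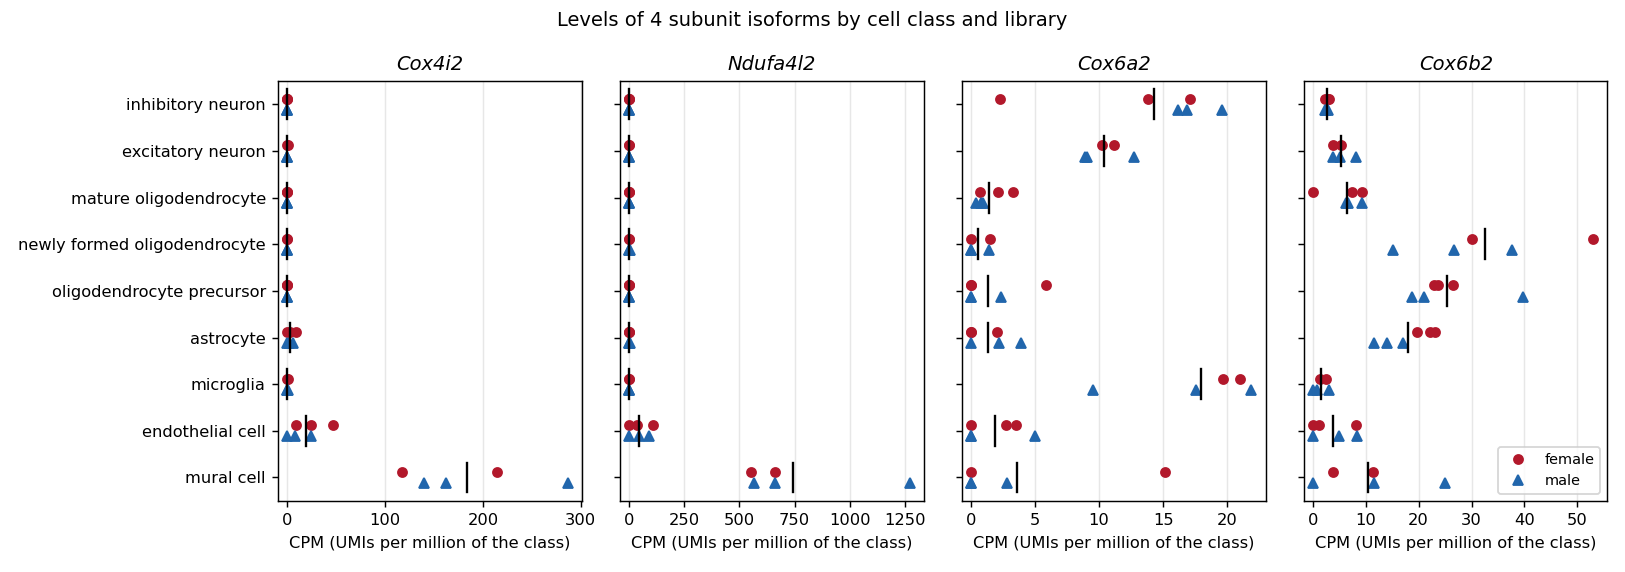
Levels in CPM of the isoform genes Cox4i2, Ndufa4l2, Cox6a2 and Cox6b2. Each point is 1 library with at least 20 cells of the class (circles female, triangles male) and each bar the mean. Cox4i2 (117 to 286 CPM) and Ndufa4l2 (551 to 1270.5) are high in mural cells, Cox6a2 in neurons and microglia, and Cox6b2 in the early oligodendrocyte classes and astrocytes, among the 9 classes plotted.

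Against inhibitory neurons, mature oligodendrocytes had higher mitochondrial and mixed nuclear changes. By edgeR 11 of 13 mitochondrial genes were higher and 0 lower (all genes 41.7% and 42.5%), with a median of 0.72. Of nuclear genes 37 were higher and 18 lower of 79 (median 0.10), so the called share was below that of all genes (84.2%). The nuclear split turned with the scaling: 21 higher and 42 lower of 79 by DESeq2, 2 higher and 74 lower of 79 without TMM and 49 higher and 4 lower of 77 in cells of 3000 to 6000 UMIs. Without TMM the median of all genes itself shifted to -0.79. Relative to that median the mitochondrial genes stood at 0.73, 0.73 and 0.70 by TMM, DESeq2 and totals, and the nuclear ones at 0.12, 0.10 and 0.08. The mitochondrial counts were 2 higher and 5 lower of 13 without TMM and 5 higher and 2 lower of 13 in the depth window.

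mt-Co1 led the mitochondrial genes, with 5169, 4803 and 5513 CPM in the female and 4793, 4815 and 5088 CPM in the male libraries in mature oligodendrocytes and 3041, 3225 and 2389 CPM in the female and 2851, 2672 and 3012 CPM in the male libraries in inhibitory neurons, and a change of 1.63 ± 0.11 (SE, adjusted p = 3.37e-08, same sign in 6 of 6 libraries). For mt-Nd1 the scale decided. It had 3298, 3838 and 3509 CPM in the female and 3868, 3964 and 3540.3 CPM in the male libraries in oligodendrocytes and 5779.5, 6439 and 4601 CPM in the female and 7267, 8036 and 7210.2 CPM in the male libraries in neurons, lower in every library on the scale of totals, while its TMM-scaled change was -0.00 (adjusted p = 0.976). Among nuclear genes Cox6a1, Ndufb11 and Ndufa3 were higher by 1.05 (adjusted p = 1.51e-08), 0.90 (adjusted p = 9.78e-08) and 0.82 (adjusted p = 6.13e-08) on the TMM scale. Lower were Ndufa4, Cox5a and Cox7b, with changes of -0.77 (adjusted p = 2.69e-07), -0.72 (adjusted p = 4.39e-07) and -0.66 (adjusted p = 2.44e-06). Called in the same direction under all 3 scalings and in the depth window were mt-Co1, mt-Atp6 and Cox6a1 as higher, and Ndufa4, Atp5g3, Atp5sl and Cox6a2 as lower.

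The mitochondrial RNAs, which are made as joint transcripts, did not hold fixed proportions across classes. mt-Nd1 made up 17.1% ± 1.11 (SD, n = 5) of the UMIs of the 13 genes in excitatory and 15.2% ± 1.31 (n = 6) in inhibitory neurons. Microglia (12.6% ± 0.685), astrocytes (11.1% ± 1.81) and endothelial cells (11.1% ± 1.48) were intermediate, and newly formed oligodendrocytes (9.55% ± 0.428), precursors (9.45% ± 0.457), mural cells (9.01% ± 0.596) and mature oligodendrocytes (8.58% ± 0.632) lowest. Between neurons and the mural and mature oligodendrocyte classes mt-Co1 ran the opposite way, with 11.8% ± 0.558 in mature oligodendrocytes, 10.2% ± 0.663 in mural cells, 6.72% ± 0.86 in inhibitory and 5.95% ± 1.3 in excitatory neurons. Every library of mature oligodendrocytes lay apart from every neuron library for both genes. At 3000 to 6000 UMIs the shares were 15.7% ± 1.88 and 8.74% ± 0.828 for mt-Nd1 and 5.68% ± 0.814 and 11.6% ± 1.09 for mt-Co1 in inhibitory neurons and mature oligodendrocytes. Not every class kept the inverse order there. Precursors had 11.8% ± 0.692 of mt-Co1. Microglia had 12.4% ± 0.447 of mt-Nd1 and 10.2% ± 0.44 of mt-Co1, against 10.5% ± 0.68 and 9.69% ± 0.668 in newly formed oligodendrocytes. A 10x library counts RNA through a poly(A) tail or an internal A-rich stretch, and the sources used here do not say how reads shared with nuclear copies of mitochondrial DNA were counted, so a gene's share is a share of what was captured.

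**Figure D5:**
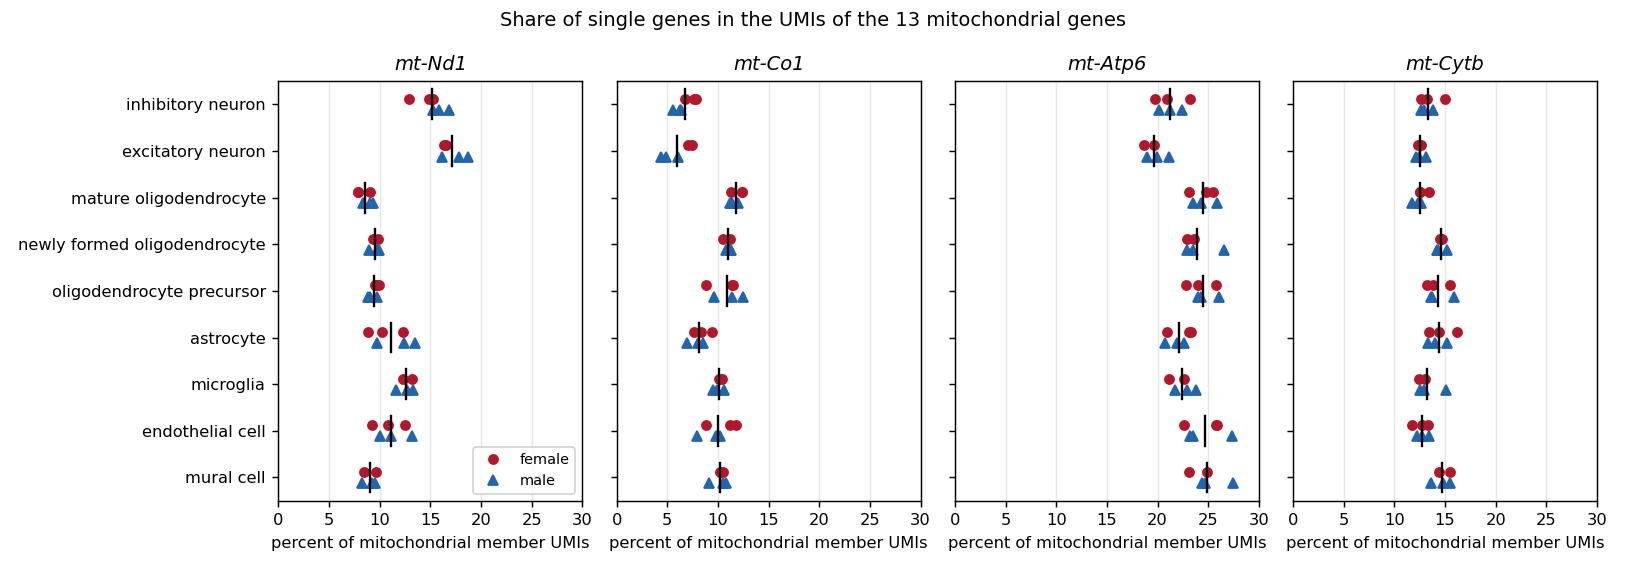
Share of single genes in the UMIs of the 13 mitochondrial genes, in percent, by class. Each point is 1 library (circles female, triangles male) and each bar the mean. mt-Nd1 is high and mt-Co1 low in neurons (15.2% ± 1.31 and 6.72% ± 0.86 in inhibitory ones), and mature oligodendrocytes show the opposite (8.58% ± 0.632 and 11.8% ± 0.558).

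Excitatory and inhibitory neurons differed in few chain genes. Of 13 mitochondrial genes 4 were lower and 0 higher in excitatory neurons, and of 81 nuclear genes 6 were higher and 11 lower (all genes 16.9% and 18.6%), with medians of -0.04 and 0.01. mt-Co1 had 2652 and 2928 CPM in the female and 2306, 2212 and 2444 CPM in the male libraries in excitatory neurons, against 2389 to 3225 CPM in inhibitory ones, and a change of -0.27 ± 0.03 (SE, adjusted p = 2.41e-07, same sign in 5 of 5 libraries). Cox7a1, the muscle-type partner of Cox7a2, had 6.88 and 5.21 CPM in the female and 6.49, 7.29 and 13.9 CPM in the male libraries of excitatory neurons and 2.28 to 3.97 CPM in inhibitory neurons, with a change of 0.88 ± 0.18 (SE, adjusted p = 0.000458, same sign in 5 of 5 libraries). Atp5s and Cox8a were higher by 0.31 (adjusted p = 0.000209) and 0.13 (adjusted p = 0.00379). The nuclear split was 14 higher and 3 lower of 81 without TMM, 4 higher and 25 lower of 81 without the Unc5d cluster and 2 higher and 18 lower of 77 in the depth window, where the mitochondrial one was 6 higher and 1 lower of 13. Atp5s, Sdhc, Atp5k, Ndufs4 and mt-Co1 were called in the same direction under the 3 scalings and in the window.

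Astrocytes, microglia and endothelial cells were each compared with inhibitory neurons. In astrocytes 6 of 13 mitochondrial genes were higher and 0 lower, and 4 nuclear genes higher and 4 lower of 77 (all genes 26.3% and 25.2%, 51.5% either way), with medians of 0.28 and -0.01. mt-Co1 changed by 0.70 ± 0.13 (SE, adjusted p = 0.000458, same sign in 6 of 6 libraries), mt-Cytb, the catalytic core of complex III, by 0.53 (adjusted p = 0.00239), and the nuclear complex III gene Uqcrfs1 by 0.53 (adjusted p = 0.00792). Cox7a2l, which joins complexes III and IV, was lower, at -0.71 (adjusted p = 0.0021). Without male replicate 2, 1 mitochondrial and 15 nuclear genes were called. The astrocyte class carried the 14 neuron markers at a summed level of 4959 CPM (138 to 9757 over libraries), against 20828 CPM (18715 to 22930.2 over libraries) in inhibitory neurons. At a finer clustering 141 of its 835 cells joined a cluster that also held 14 neuron markers. With the classes of that clustering, 16 higher and 13 lower of 77 nuclear genes were called. The nuclear counts were 3 higher and 19 lower of 77 by DESeq2, 1 higher and 21 lower of 77 without TMM and 48 higher and 1 lower of 78 in cells of 3000 to 6000 UMIs. Scaling by totals moved the median of all genes to -0.29, and relative to it the mitochondrial genes stood at 0.32, 0.34 and 0.31 by TMM, DESeq2 and totals. The mitochondrial split turned in the depth window, with 1 gene called higher and 3 lower, and mt-Cytb changed sign there. Called higher under the 3 scalings and in the window were Cox6b2 and mt-Co1.

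In microglia against inhibitory neurons the nuclear genes had 10 higher and 29 lower of 77 (median -0.21, all genes -0.18), beside 34% and 39.6% of all genes. Ndufs1, the largest core subunit of complex I, had 28.9 and 42.0 CPM in the female and 30.3, 27.9 and 19.0 CPM in the male libraries in microglia and 143, 126 and 148 CPM in the female and 139, 136 and 151 CPM in the male libraries in inhibitory neurons, without overlap, and a change of -1.06 ± 0.16 (SE, adjusted p = 3.24e-08, same sign in 5 of 5 libraries). Ndufv2, its neighbour in the electron input module, changed by -0.96 (adjusted p = 9.43e-09). Atp5e, the epsilon subunit of ATP synthase, was higher on the TMM scale at 0.92 (adjusted p = 4.54e-09), a direction that flipped without TMM (-0.11). Of the mitochondrial genes 7 were higher and 0 lower (median 0.34). Both splits turned in the depth window, where 1 mitochondrial gene was called higher and 5 lower, and 27 nuclear genes higher and 9 lower. Totals without TMM moved the median of all genes to -1.21, and the counts became 0 higher and 12 lower of 13 for mitochondrial and 0 higher and 74 lower of 77 for nuclear genes, with 3 higher and 59 lower of 77 by DESeq2. Relative to that median the mitochondrial genes stood at 0.51, 0.53 and 0.52 and the nuclear ones at -0.03, -0.03 and -0.03 by TMM, DESeq2 and totals. Ndufs1, Ndufv2, Ndufa4, Ndufa5, Ndufa8, Ndufa10, Ndufs5, Ndufs7 and Atp5sl were lower under all of these and in the depth window.

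Endothelial cells had 3 nuclear genes higher and 34 lower of 76 (median -0.29, all genes -0.06), beside 31% and 31.5%, and 2 mitochondrial genes higher and 1 lower. Ndufs1 was lowest, with 57.7, 46.9 and 24.4 CPM in the female and 59.8, 44.4 and 63.7 CPM in the male libraries and a change of -1.02 ± 0.17 (SE, adjusted p = 9.54e-05, same sign in 6 of 6 libraries). Ndufa7, an accessory subunit of the same complex, was the opposite case. It had 495, 534 and 610.2 CPM in the female and 416, 509 and 537 CPM in the male libraries in endothelial cells and 369.8 to 441 CPM in inhibitory neurons, ranges that overlap, with a change of 0.76 ± 0.13 (SE, adjusted p = 0.000129, same sign in 6 of 6 libraries), and it was the 1 member called higher under all 3 scalings and in the depth window. Called lower throughout were 11 genes, among them Ndufs1, Ndufv2, Atp5g1, Atp5g3, Cox5b and mt-Nd1. The minus-strand gene mt-Nd6 had 30.2, 29.3 and 24.4 CPM in the female and 19.9, 31.7 and 18.2 CPM in the male libraries in endothelial cells and 11.4 to 18.3 CPM in inhibitory neurons, with a change of 1.21 ± 0.23 (SE, adjusted p = 0.000395, same sign in 6 of 6 libraries). By DESeq2 the nuclear genes were 1 higher and 63 lower of 76, without TMM 1 higher and 64 lower of 76 with a median of all genes at -0.43, and in the window 19 higher and 12 lower of 79. The mitochondrial genes were 1 higher and 6 lower by DESeq2, 1 higher and 7 lower without TMM and 0 higher and 9 lower in the window. Relative to the median of all genes the nuclear genes stood at -0.23, -0.24 and -0.23 by TMM, DESeq2 and totals.

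A list of 15 core genes (11 nuclear and 4 mitochondrial, named in the methods) was read across comparisons. Against inhibitory neurons they had 7 higher and 1 lower in mature oligodendrocytes, where 84.2% of all genes were called in either direction, 4 higher and 0 lower in astrocytes (51.5% of all genes), 2 higher and 4 lower in microglia (73.5%), 1 higher and 8 lower in endothelial cells (62.4%) and 0 higher and 5 lower in excitatory neurons (35.5%). In each of these 5 comparisons the called share of the list was below that of all genes. Against mature oligodendrocytes they had 1 higher and 13 lower in precursors (71.6% of all genes) and 2 higher and 7 lower in newly formed cells (54.7%). The comparisons with inhibitory neurons share those cells as control, and both lineage comparisons share the mature oligodendrocytes.

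The isoform pairs of complex IV divided by class. Cox6a2, the heart and muscle form, had 13.8, 17.1 and 2.28 CPM in the female and 16.8, 16.1 and 19.6 CPM in the male libraries in inhibitory neurons, 19.7 and 21.0 CPM in the female and 21.9, 17.6 and 9.51 CPM in the male libraries in microglia and 11.2 and 10.2 CPM in the female and 9.05, 8.88 and 12.7 CPM in the male libraries in excitatory neurons. Mature oligodendrocytes had 0.391 to 3.30 CPM, and female replicate 3 of the inhibitory neurons fell inside that range. Its change was -2.80 ± 0.31 (SE, adjusted p = 3.83e-06, same sign in 5 of 6 libraries) in mature oligodendrocytes and -0.74 ± 0.10 (SE, adjusted p = 6.16e-06, same sign in 5 of 5 libraries) in excitatory neurons, both against inhibitory neurons. A UMI was found in 9.43% of microglia, 6.52% of inhibitory and 5.67% of excitatory neurons and 0.814% of mature oligodendrocytes. Cox6b2, known as the testis form, had 53.0 and 30.1 CPM in the female and 37.7, 26.6 and 15.2 CPM in the male libraries in newly formed oligodendrocytes, 23.6, 23.0 and 26.5 CPM in the female and 18.7, 39.7 and 21.0 CPM in the male libraries in precursors and 22.1, 23.1 and 19.7 CPM in the female and 14.1, 11.6 and 17 CPM in the male libraries in astrocytes. Inhibitory neurons had 2.24 to 3.01 CPM and mature oligodendrocytes 0 to 9.27. The change was 2.93 ± 0.29 (SE, adjusted p = 8.46e-07, same sign in 6 of 6 libraries) in astrocytes against inhibitory neurons and 1.60 ± 0.24 (SE, adjusted p = 5.02e-06, same sign in 5 of 5 libraries) in newly formed against mature oligodendrocytes. A Cox6b2 UMI was found in 18.1% of newly formed oligodendrocytes, 9.14% of precursors, 6.35% of astrocytes and 1.96% of inhibitory neurons, and, among the small groups, in 23.1% of 117 dividing cells and 18.8% of 64 fibroblasts. A share of cells with a UMI also depends on depth (medians of 5147, 6743, 8196 and 4826 UMIs for the Cox6a2 shares above).

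The genes of the ATP synthase c subunit split in mature oligodendrocytes. Atp5g1, Atp5g2 and Atp5g3 encode the same mature protein, which forms the rotor ring, behind different import signals. Atp5g3 had 128, 203 and 107 CPM in the female and 128, 147 and 107 CPM in the male libraries in mature oligodendrocytes and 457, 472 and 440.0 CPM in the female and 419.8, 483 and 409.9 CPM in the male libraries in inhibitory neurons. Atp5g1 had 325, 372 and 305 CPM in the female and 318, 305 and 274 CPM in the male libraries of mature oligodendrocytes and 718, 671 and 679 CPM in the female and 705, 663 and 697 CPM in the male libraries of inhibitory neurons. Both were lower in every oligodendrocyte library on the scale of totals. Atp5g2 had 218, 289 and 223 CPM in the female and 195, 285 and 208 CPM in the male libraries of mature oligodendrocytes and 236, 287 and 303 CPM in the female and 218, 295 and 229 CPM in the male libraries of inhibitory neurons, with overlapping values. The TMM-scaled changes were -0.91 ± 0.07 (SE, adjusted p = 1.8e-07, same sign in 6 of 6 libraries) for Atp5g3, -0.32 ± 0.06 (SE, adjusted p = 0.000357, same sign in 6 of 6 libraries) for Atp5g1 and 0.68 ± 0.06 (SE, adjusted p = 2.71e-07, same sign in 6 of 6 libraries) for Atp5g2. Without TMM the last one turned to -0.13, and in the depth window Atp5g1 turned to 0.11. Cox6a1, the common partner of Cox6a2, had 708, 754 and 774 CPM in the female and 699, 736 and 745 CPM in the male libraries of mature oligodendrocytes against 568.5 to 688 CPM in inhibitory neurons, without overlap, and a change of 1.05 ± 0.06 (SE, adjusted p = 1.51e-08, same sign in 6 of 6 libraries).

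The promoters of these 4 genes are printed so that the genes for 1 protein that differed in direction on the TMM scale, and a gene higher under every scaling, can be read side by side. Each is the 250 bases before the start of transcription of the RefSeq annotation (GRCm38.p6, the assembly of mm10), 5′ to 3′ on the strand of the gene, which is the minus strand for all 4. They lie at chr11:96075632-96075881 for Atp5g1, chr15:102671048-102671297 for Atp5g2, chr2:73911327-73911576 for Atp5g3 and chr5:115348959-115349208 for Cox6a1. The GENCODE annotation places Atp5g2 at chr15:102662864-102672352, so its window lies within that span, before an internal start. The 65 nuclear genes with an entry had 70 promoters, so a printed window need not be the only promoter of its gene. Capitals mark a match on either strand to the palindrome of the factor NRF1 (the 10 capitals in the line of Atp5g2) or to CCGGAAG, a motif of ETS factors such as GABP, both known regulators of nuclear respiratory genes.
Atp5g1: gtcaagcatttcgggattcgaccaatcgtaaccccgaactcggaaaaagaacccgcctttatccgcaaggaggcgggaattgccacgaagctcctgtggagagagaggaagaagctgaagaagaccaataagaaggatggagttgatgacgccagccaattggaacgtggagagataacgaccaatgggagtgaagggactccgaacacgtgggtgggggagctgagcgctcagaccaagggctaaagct
Atp5g2: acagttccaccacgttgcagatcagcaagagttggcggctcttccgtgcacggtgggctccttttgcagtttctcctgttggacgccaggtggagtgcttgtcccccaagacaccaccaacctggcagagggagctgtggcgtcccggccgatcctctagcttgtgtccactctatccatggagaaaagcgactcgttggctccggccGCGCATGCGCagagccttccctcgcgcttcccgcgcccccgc
Atp5g3: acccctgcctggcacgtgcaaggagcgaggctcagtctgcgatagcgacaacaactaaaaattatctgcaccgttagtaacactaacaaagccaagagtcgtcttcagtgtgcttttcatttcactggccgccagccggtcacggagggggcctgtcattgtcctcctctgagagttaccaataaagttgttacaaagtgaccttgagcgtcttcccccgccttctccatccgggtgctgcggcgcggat
Cox6a1: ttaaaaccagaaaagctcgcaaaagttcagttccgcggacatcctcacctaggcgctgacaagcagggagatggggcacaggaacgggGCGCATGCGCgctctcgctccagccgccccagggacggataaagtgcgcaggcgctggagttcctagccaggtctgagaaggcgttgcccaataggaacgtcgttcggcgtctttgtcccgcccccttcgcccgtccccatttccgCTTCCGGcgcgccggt
Atp5g2 holds 1 NRF1 match, Cox6a1 1 NRF1 and 1 ETS match, and the windows of Atp5g1 and Atp5g3 hold neither string. Among the 65 nuclear chain genes with a promoter entry, 4 (6.15%) held the NRF1 string, against 0.877% of 27025 genes, and 12 (18.5%) held CCGGAAG, against 7.83%. GGGCGGGG, a motif of Sp factors, was in 13.8% against 18.0%, AAGATGGCG of YY1 in 1.54% against 0.71%, CCAAT in 44.6% against 37.5% and TATAAA in 9.23% against 14.3%. No motif is part of another, and a match is a string of letters, not a site shown to be bound.

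Genes that feed, build or decode the chain were counted as lists. Mural against endothelial cells had 16.8% of all genes higher and 18.8% lower, and the list counts are read beside these shares. The citrate cycle, which feeds electrons to the chain, had 9 higher and 0 lower of 13 (median 0.73), led by Fh1 at 1.13 and Dlst at 0.99. Carriers and pores had 7 higher and 1 lower of 9. Cycs, the cytochrome c gene, changed by 1.64 and the outer membrane pore gene Vdac1 by 1.37, whereas Ucp2, an uncoupling protein homologue, changed by -4.43. The mitochondrial ribosome had 8 higher and 1 lower of 69 (median 0.23), the cytosolic ribosome 3 higher and 2 lower of 84 (3 and 11 without TMM) and the assembly factors 4 higher and 4 lower of 21. Of the factors of mitochondrial DNA and RNA 0 of 6 tested were called by edgeR and 0 by DESeq2, with 2 at an unadjusted p under 0.05. Early response and dissociation genes had 0 higher and 9 lower of 17, and their part in the difference was not tested.

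In mature oligodendrocytes against inhibitory neurons, where 41.7% of all genes were called higher and 42.5% lower, glycolysis had 0 higher and 15 lower of 16 (median -1.34), led by Eno2 at -3.15 and the phosphofructokinase genes Pfkp at -2.54 and Pfkm at -2.35. The citrate cycle had 2 higher and 7 lower of 13 and the assembly factors 13 higher and 21 lower of 45. The ribosomal lists turned with the scaling: the mitochondrial ribosome had 37 higher and 24 lower of 77 by TMM but 3 and 67 without it, and the cytosolic one 65 higher and 3 lower of 84 and 6 and 66. Among mitochondrial DNA and RNA factors (12 higher and 6 lower of 28) the coactivator genes Ppargc1b and Ppargc1a, known to drive nuclear respiratory genes, changed by -3.70 and -3.12. In precursors against mature oligodendrocytes (35.7% of all genes higher and 35.9% lower) glycolysis had 9 higher and 5 lower of 16, led by Aldoc at 2.38, and Ppargc1a changed by 3.12. In astrocytes against inhibitory neurons (26.3% of all genes higher and 25.2% lower) glycolysis had 4 higher and 6 lower of 16 and the citrate cycle 4 higher and 3 lower of 13. Of all genes, 34% were higher and 39.6% lower in microglia than in these neurons, 31% and 31.5% in endothelial cells, and 16.9% and 18.6% in excitatory neurons. Against the same neurons the mitochondrial ribosome had 13 higher and 29 lower of 76 in microglia, 6 higher and 26 lower of 75 in endothelial cells and 6 higher and 12 lower of 77 in excitatory neurons, and the cytosolic ribosome 83 higher and 0 lower of 84, 78 higher and 1 lower of 84 and 34 higher and 0 lower of 84. In the depth window the last of these turned to 0 and 24. Early response and dissociation genes were 15 higher and 0 lower of 17 in microglia, 15 higher and 1 lower of 17 in endothelial cells, 12 higher and 3 lower of 17 in mature oligodendrocytes, 1 higher and 11 lower of 14 in astrocytes and 1 higher and 14 lower of 17 in excitatory neurons, and their part in these comparisons was not tested. In newly formed against mature oligodendrocytes (27.6% of all genes higher and 27.1% lower) the same list had 2 higher and 15 lower of 17, glycolysis 7 higher and 4 lower of 16 and the mitochondrial ribosome 19 higher and 12 lower of 76.

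Female and male libraries, which the design sets side by side, gave no call for any chain gene in the fit that did not pair libraries. edgeR and DESeq2 each called 0 of the members in all cells and in 9 classes, beside 0.0435% of all genes called by edgeR in all cells, 0.0483% in inhibitory and 0.0554% in excitatory neurons, 0.0545% in mature and 0.0773% in newly formed oligodendrocytes, 0.0527% in precursors, 0.0389% in astrocytes, 0.0942% in microglia, 0.0352% in endothelial cells and 0.0546% in mural cells. At an unadjusted p under 0.05 edgeR had 1 mitochondrial gene in all cells, 6 mitochondrial and 2 nuclear ones in inhibitory neurons, 3 and 3 in excitatory neurons and 5 nuclear ones in microglia, and DESeq2 had 4 and 0, 2 and 3, and 1. mt-Nd1 had the smallest p in inhibitory neurons, with 5779.5, 6439 and 4601 CPM in the female and 7267, 8036 and 7210.2 CPM in the male libraries and a female minus male change of -0.39 ± 0.14 (SE, unadjusted p = 0.0154, adjusted p = 0.718). The minus-strand gene mt-Nd6 went the other way, at 0.40 ± 0.15 (SE, unadjusted p = 0.0217, adjusted p = 0.718) in inhibitory and 0.56 ± 0.18 (SE, unadjusted p = 0.00917, adjusted p = 0.795) in excitatory neurons. Its levels there were 19.1 and 23.5 CPM in the female and 14.2, 15.5 and 18.5 CPM in the male libraries. In microglia 71 of 76 nuclear genes had a value above 0, with a median of 0.27 (all genes 0.00), and the complex I gene Ndufs5 had 0.61 ± 0.23 (SE, unadjusted p = 0.0156, adjusted p = 0.782).

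In inhibitory neurons the ratio of the sums did not overlap between the sexes in all cells, and did in cells of 3000 to 6000 UMIs. In all cells the log2 ratio was 0.01, 0.10 and 0.00 in the female and 0.36, 0.41 and 0.40 in the male libraries, with every male value above every female one. Without the Unc5d cluster it was -0.16, -0.11 and -0.18 in the female and 0.07, 0.05 and 0.19 in the male libraries, again with no overlap. The median change of the 13 mitochondrial genes, female minus male, was -0.21, and that of the 81 nuclear genes 0.12, 71 of them above 0, against -0.01 for all genes. In inhibitory neurons of 3000 to 6000 UMIs the ratios were 1.28, 1.44 and 0.10 in the female and 1.08, 1.46 and 0.86 in the male libraries, which overlap with and without female replicate 3, the lowest, which held 34 of these cells. There the median changes of mitochondrial and nuclear genes were -0.02 and 0.01. Microglia did not overlap between the sexes either, with ratios of 0.58 and 0.30 in the female and 0.77, 0.82 and 0.84 in the male libraries. In microglia of 3000 to 6000 UMIs they stayed apart, at 0.61 and 0.15 in the female and 0.82, 0.78 and 0.88 in the male libraries. With so few libraries per sex such splits can arise by chance, and the ratios carry no test.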

How the data were processed

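Single-cell UMI counts per gene and barcode were deposited by the authors as a single matrix that pools the libraries. The ending of each barcode gives its library. Counts were made with Cell Ranger 2.0.0 on mm10, per the submitters' processing notes. The barcode filter and the rule for reads that match several genes are not given by these sources. Libraries held 1278429 to 81162330 UMIs.

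Cells with at least 500 genes and at most 20% mitochondrial UMIs were kept, and doublets were removed by simulation in each library (scanpy 1.11.5, expected rate 0.06, 1002 cells). Cells were clustered on 2000 variable genes and 30 components (15 neighbours, leidenalg 0.10.2, resolution 1) with the respiratory chain genes and the accompanying lists left out. Clusters were named from marker lists. UMIs were summed per class and library with at least 20 cells. Levels in CPM use library totals. Class comparisons used edgeR 4.0.16 (R 4.3.3, limma 3.58.1) with TMM scaling, its expression filter, the quasi-likelihood test and the library as a block, and sex comparisons the same test over libraries, with p-values adjusted over all genes tested. The fits of excitatory against inhibitory neurons and of sex in inhibitory neurons were also run on simulated data. Those data came from a common profile with balanced changes, so they cannot show how calls turn with the scaling. n counts libraries, each a pool of mice. The SDs of levels and the errors of the sex comparisons hold the spread between pools and handling together. Errors of the class comparisons hold the spread of the difference between classes within libraries. Shares of cells with a UMI pool the libraries of a class. Figures were drawn with matplotlib 3.10.9.

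The members and lists were chosen with earlier results of these data known. The genes named by rule were the isoform pairs of complex IV, Ndufa4 and Atp5g; 15 core genes (Sdha, Sdhb, Uqcrc1, Uqcrc2, Uqcrfs1, Ndufs1, Ndufv1, Atp5a1, Atp5b, Cox5a, Cox5b, mt-Co1, mt-Nd1, mt-Cytb, mt-Atp6); per comparison up to 5 nuclear and 3 mitochondrial called genes per direction with the largest change and the same sign in every library; 2 genes per direction with the smallest p for sex; and up to 3 called genes of each list. The genes named in the depth quartiles, and those named as called under every scaling, were chosen after their values were seen.

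Alternatives were DESeq2 1.42.0 with its size factors, resolution 2, at most 10% mitochondrial UMIs, no expression filter, cells thinned to 1500 UMIs, medians over cells, mitochondrial genes left out of the scaling or the denominator, a replicate block for sex, and each library left out. Library totals without TMM, cells of 3000 to 6000 UMIs, the deepest quartile and the removal of the Unc5d cluster were chosen after seeing the data. Promoter sequences are from RefSeq (GRCm38.p6), which held 65 of the 82 nuclear genes.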

Additional observations from a re-analysis of the deposited data

Results flagged for a closer look

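Single libraries stood apart from the rest of their class in 13 sets of values. Of 27 sets of summed shares or ratios examined 1 passed Dixon's limit, and of 133 sets of isoform levels 12, where chance alone passes about 1 set in 20.

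Mural cells of male replicate 3 (35 cells) were apart for 4 isoform genes. Ndufa4l2 had 1270.5 CPM against 551 to 663 CPM in the other libraries. Its partner Ndufa4 went the other way, with 399 CPM against 738 to 842 CPM in the other libraries, as did Cox4i1, with 822 CPM against 1336 to 1467 CPM in the other libraries, and Atp5g1, with 199 CPM against 371 to 398 CPM in the other libraries. In that library 54.3% of mural cells were pericyte-like, against 13% to 42.5% in the others, and the part of this in the levels was not tested. Mural cells of female replicate 2, the library with the lowest pericyte-like share, had 15.2 CPM of Cox6a2 against 0 to 2.81 CPM in the other libraries. The whole mural class held 9 UMIs of that gene.

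Female replicate 3, the shallowest library, was apart for Cox6a2 in inhibitory neurons, with 2.28 CPM against 13.8 to 19.6 CPM in the other libraries, and for Cox6b2 in mature oligodendrocytes, with 0 CPM against 6.26 to 9.27 CPM in the other libraries. Male replicate 3 was apart for Cox7a1 in excitatory neurons, with 13.9 CPM against 5.21 to 7.29 CPM in the other libraries, and for the mitochondrial share of newly formed oligodendrocytes, at 2.87% against 3.24% to 3.40%. Precursors of female replicate 2 had 415 CPM of Atp5g1 against 353 to 362 CPM in the other libraries. Precursors of male replicate 2 had 39.7 CPM of Cox6b2 against 18.7 to 26.5 CPM in the other libraries. Endothelial cells of female replicate 2 had 299 CPM of Atp5g3 against 146 to 196 CPM in the other libraries. Newly formed oligodendrocytes of male replicate 1 had 4.19 CPM of Ndufa4l2, from 3 UMIs, with 0 in the others.

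Of 260 paired differences between classes examined, 1 split by sex. Atp5g2 was higher in excitatory than in inhibitory neurons in the male libraries, by up to 0.142 on the log2 scale, and lower in the female ones, down to -0.111. The difference between the sexes was not tested.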

How the results depend on the processing

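Counts of called members that moved by over 1.5 times, and values that changed sign, were as follows, and their causes were not tested. Without TMM the members called were 7 mitochondrial in mature oligodendrocytes, 22 nuclear and 2 mitochondrial in astrocytes, 74 and 12 in microglia and 65 and 8 in endothelial cells, all against inhibitory neurons, and 8 mitochondrial in precursors. Sign changes there were Cox4i1 -0.13, Atp5g2 -0.13 and Cox7a2 -0.53 in mature oligodendrocytes. In microglia they were Atp5e -0.11, Cox7a2l -0.24, Atp5g2 -0.41, Ndufs8 -0.45, Cox4i1 -0.47, mt-Co1 -0.16, mt-Atp8 -0.45, mt-Nd2 -0.49, Cox6a1 -0.69 and Cox6b1 -0.72. In endothelial cells Cox7a2l was -0.044, in precursors Cox6a1 0.10, Cox7a2 0.16 and Atp5g1 0.22, and in newly formed oligodendrocytes Cox6a1 0.11, Cox4i1 0.051 and Cox7a2 0.14. DESeq2 called 22 nuclear members in astrocytes, 62 nuclear and 4 mitochondrial in microglia and 64 and 7 in endothelial cells, with Cox6a1 at -0.11 and Cox6b1 at -0.15 in microglia.

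In cells of 3000 to 6000 UMIs the counts were 7 mitochondrial in excitatory neurons, 7 in mature oligodendrocytes and 9 in endothelial cells, and 49 nuclear in astrocytes. The log2 ratio of mitochondrial to nuclear UMIs was 1.04 in inhibitory neurons, 1.44 in excitatory neurons, 0.36 in newly formed oligodendrocytes and 0.90 in all cells. Sign changes were Cox6b1 -0.0040 and mt-Atp6 0.039 in excitatory neurons, Atp5g1 0.11 in mature oligodendrocytes, Cox7a2l 0.075, Atp5g1 0.029, mt-Nd4 -0.060 and mt-Cytb -0.069 in astrocytes, and mt-Nd2 -0.040 in microglia. In the deepest quartile the ratio was -0.58 in inhibitory and -0.58 in excitatory neurons, 0.71 in mature oligodendrocytes and 0.25 in mural cells. Thinned to 1500 UMIs per cell, 6 nuclear and 2 mitochondrial members were called in excitatory neurons, 14 and 3 in astrocytes, 4 mitochondrial in microglia, 7 in endothelial cells and 25 nuclear in newly formed oligodendrocytes, and ratios were 0.69, 0.66, 0.24 and 0.74 in inhibitory and excitatory neurons, newly formed oligodendrocytes and all cells. Without the Unc5d cluster 29 nuclear members were called in excitatory neurons, mt-Atp6 was 0.0060 there, and the inhibitory ratio was -0.025.

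With at most 10% mitochondrial UMIs 11 mitochondrial members were called in microglia, and ratios were -0.064 in inhibitory neurons and 0.19 in all cells. Without the expression filter the counts were 14 nuclear and 2 mitochondrial in astrocytes, 3 in microglia and 7 in endothelial cells. Astrocytes had 29 nuclear members called at resolution 2. As medians over cells the ratio was 0.0022 in newly formed oligodendrocytes and 0.30 in mural cells. With libraries left out in turn, counts were 8 to 25 nuclear and 2 to 5 mitochondrial in excitatory neurons, 5 to 15 and 1 to 6 in astrocytes, 3 to 8 mitochondrial in microglia and 7 to 10 in mural against endothelial cells. The 17 nuclear members called in excitatory neurons became 9 (female 1 left out), 10 (female 2 left out), 8 (male 1 left out), 9 (male 2 left out). The 4 mitochondrial members called in excitatory neurons became 2 (female 1 left out). The 8 nuclear members called in astrocytes became 5 (female 1 left out), 15 (male 2 left out). The 6 mitochondrial members called in astrocytes became 1 (male 2 left out). The 7 mitochondrial members called in microglia became 3 (female 1 left out), 3 (male 1 left out). The 11 mitochondrial members called in mural cells became 7 (female 2 left out). Leaving the mitochondrial genes out of the scaling moved none of the 18 nuclear counts past that limit.

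With the replicate number as a block, 3 of 94 members were called between the sexes in inhibitory neurons, beside 476 of 14507 genes, and 22 of 92 in excitatory neurons, beside 503 of 12625 genes, against 0 members without it, and 0 in the other classes and in all cells. In excitatory neurons female replicate 3 was missing, so male replicate 3 had no partner in that fit. The labels do not say that the numbers pair libraries across the sexes. Deviations of same-numbered libraries from the means of their sex correlated at 0.377, 0.0806 and 0.289. The same number was the best match for female replicates 1 and 3, while female replicate 2 correlated best with male replicate 1, at 0.296. Deviations from a mean of 3 libraries are tied to each other, so they cannot settle whether the numbers pair libraries.

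Few UMIs stood behind the rare isoforms. Female replicate 3 held 406 cells, and under 20 of them were of each class for which it gave no value: excitatory neurons, microglia, mural cells and newly formed oligodendrocytes.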
